A study of Mus musculus with 56 samples.

Results

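In this study 10 genes that mark osteoblasts and osteocytes, the cells that lay down bone matrix and the cells that become embedded in it, were followed in the front paws of mice with collagen-induced arthritis. They are Bglap, Bglap2, Sp7, Runx2, Ibsp, Alpl, Spp1, Dmp1, Phex and Sost. They were chosen by symbol, with earlier results of these data known. All 10 were found by their Ensembl identifiers among the 53431 features of the expression table. The paws came from 56 male DBA/1 mice, 1 library per mouse, and each library was made from a homogenate of whole front paws, so bone, cartilage, skin, muscle and joint tissue were measured together.

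The 5 groups were as follows. The combination group (n = 13) was immunised with chicken type II collagen and received the anti-TNF antibody XT3.11 at 30 mg/kg together with the anti-IL-6 antibody MP5-20F3 at 10 mg/kg. The anti-TNF group (n = 13) was immunised and received XT3.11 alone at 30 mg/kg, and the anti-IL-6 group (n = 13) was immunised and received MP5-20F3 alone at 10 mg/kg. The isotype group (n = 13) was immunised and received a control IgG1 antibody at 30 mg/kg. The no CIA group (n = 4) is labelled as having neither arthritis nor treatment. Immunisation was on day 1 and day 21, and injections were given 2 times a week for 5 weeks from day 21. RNA was taken on day 91 from all groups, weeks after the last injection, so the values describe paws long after antibody dosing had ended. Ages of the mice are not given in the labels. The steps between low values put the depth at 39.9 to 54.7 M fragments per library.

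Bone-forming cells follow a sequence. Runx2 commits precursors to the osteoblast lineage and Sp7 (osterix) acts after it, alkaline phosphatase and matrix proteins are made as the cells mature, and osteocalcin comes late. A share of osteoblasts become osteocytes, which signal through the mineral to other cells, among other means by secreting sclerostin, an inhibitor of Wnt signalling. Fewer cells of a type and less RNA per cell cannot be told apart in a bulk sample. Levels are given in FPKM, fragments per kilobase of transcript scaled to the depth of the library, as mean ± SD between mice. Differences between groups are in log2(FPKM + 1) with their standard error.

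All 10 genes had a higher mean in each of the 4 immunised groups than in no CIA paws. The ratios of mean FPKM lay between 1.42 for Sost in isotype paws and 8.70 for Ibsp in anti-TNF paws. Of 36878 features with any value, 53.2% had a positive log2 difference from no CIA in combination paws. The shares were 55.5% in anti-TNF, 56.6% in anti-IL-6 and 55.3% in isotype paws. None of the 9 genes that could be tested passed the threshold of an adjusted p under 0.05 in any of the 10 comparisons. Among the 4 immunised groups, the differences between mice of 1 group were larger than those between groups. These 4 groups accounted for 0.51% to 3.23% of the variance of each gene, and all 5 groups for 5.76% to 11.9%. The share for 5 groups depends on the small number of no CIA libraries and does not measure the size of their difference.

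**Figure D1:**
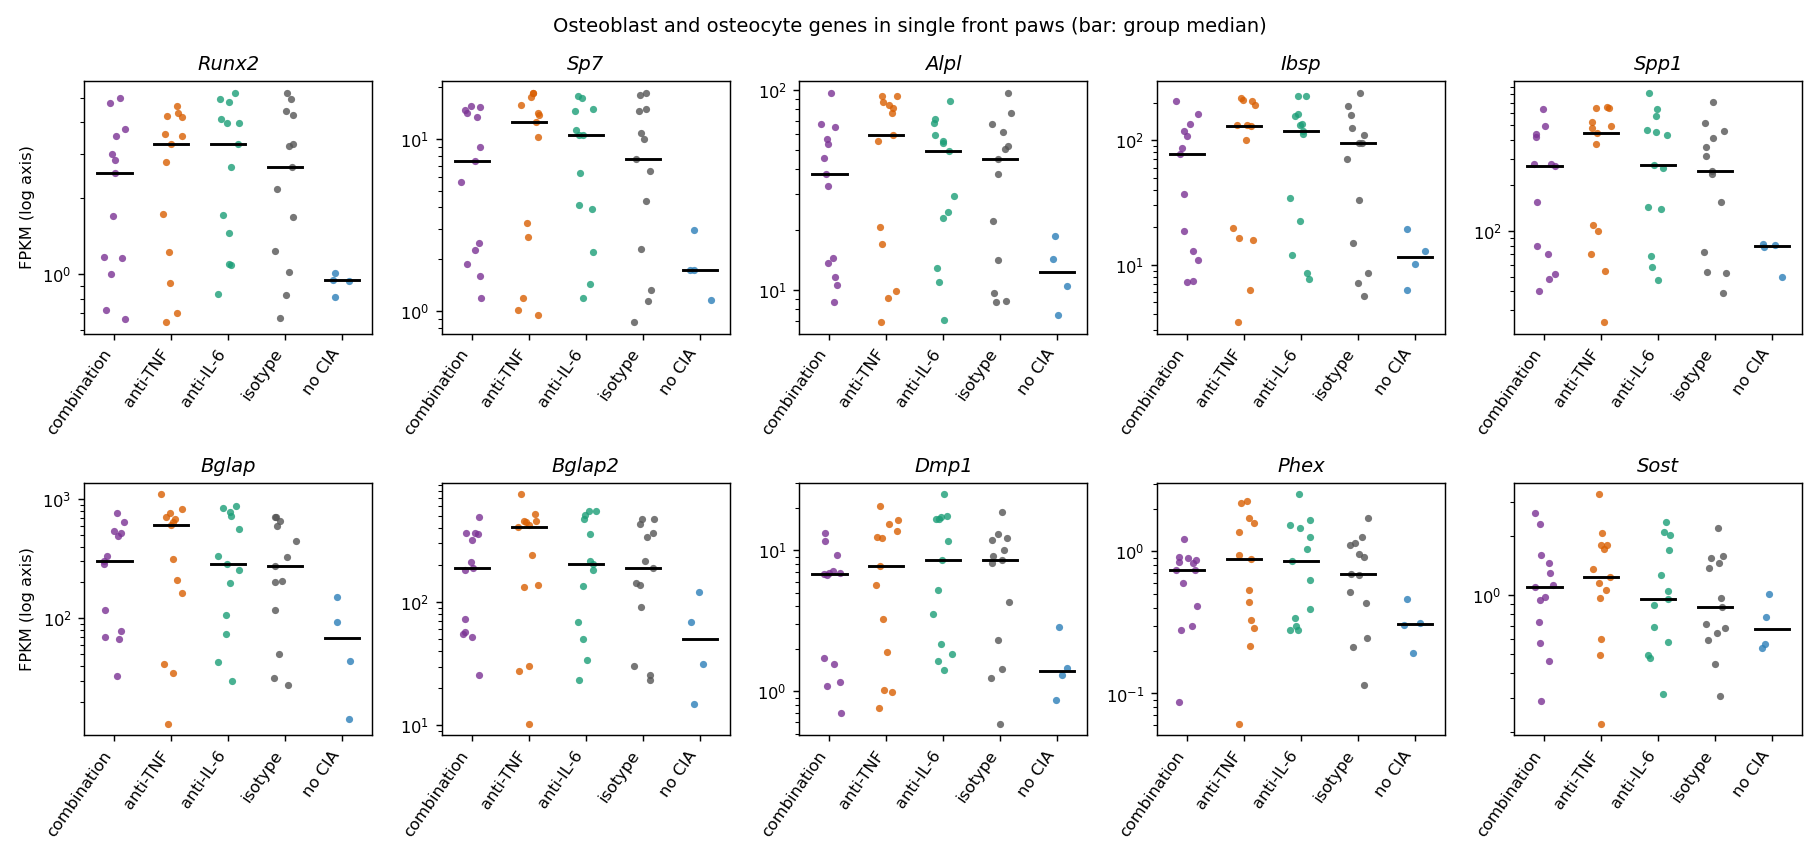
Level of each gene in every library, in FPKM on log axes, for the combination, anti-TNF, anti-IL-6, isotype and no CIA groups. Each point is 1 mouse and each bar a group median. The immunised groups spread over a wide range, with Bglap between 13.0 and 1098 FPKM, and their low end overlaps the 4 no CIA paws.

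Runx2, the factor that starts the lineage, was low and even in no CIA paws, with a coefficient of variation of 59.03% in isotype and 8.80% in no CIA paws. The gene (ENSMUSG00000039153.16, chromosome 17, 44495987 to 44814797, minus strand; GRCm38 here and below) ran from 0.670 to 5.25 FPKM with a median of 2.66 in isotype paws. The 4 no CIA paws had 0.817, 0.944, 1.01 and 0.951 FPKM. Isotype paws therefore reached both above and slightly below the no CIA range, and 11 of 13 lay above its top. The difference was 0.82 ± 0.360 (adjusted p = 0.275). In the other immunised groups, Runx2 had 10 of 13 combination, 10 of 13 anti-TNF and 12 of 13 anti-IL-6 paws above the highest no CIA paw. The difference from no CIA was 0.70 ± 0.360 for the combination (adjusted p = 0.474), 0.83 ± 0.360 for anti-TNF (adjusted p = 0.211) and 0.93 ± 0.360 for anti-IL-6 (adjusted p = 0.124). The anti-IL-6 value had the smallest adjusted p of any of the 9 tested genes in any comparison.

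Sp7 (ENSMUSG00000060284.7, chromosome 15, 102356606 to 102367182, minus strand), the zinc finger factor that acts with Runx2, ran from 0.859 to 18.5 FPKM with a median of 7.64 in isotype paws. The no CIA paws had 1.17, 1.74, 2.94 and 1.72 FPKM. Of the isotype paws, 9 lay above and 2 below all no CIA paws. The difference was 1.34 ± 0.666 (adjusted p = 0.299).

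Alpl (ENSMUSG00000028766.10, chromosome 4, 137741733 to 137796384, minus strand) encodes tissue-nonspecific alkaline phosphatase, which removes the mineralisation inhibitor pyrophosphate. It ran from 8.71 to 96.6 FPKM with a median of 45.2 in isotype paws, and the no CIA paws had 7.47, 14.3, 18.6 and 10.4 FPKM. Isotype paws averaged 42.4 ± 28.6 FPKM and no CIA paws 12.7 ± 4.81 FPKM, a difference of 1.34 ± 0.667 (adjusted p = 0.300). The upper 9 isotype paws exceeded every no CIA paw and the others fell within the no CIA range.

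Among the matrix proteins, Ibsp had the widest separation of means. It encodes bone sialoprotein, an acidic glycoprotein of mineralised matrix, and lies on chromosome 5 (ENSMUSG00000029306.8, 104299171 to 104311469, plus strand). Isotype paws ran from 5.60 to 241 FPKM with a median of 94.96, against 6.27, 13.0, 19.4 and 10.2 FPKM in the 4 no CIA paws. The difference was 2.07 ± 1.01 (adjusted p = 0.295). Its standard error was the largest of the 9 genes, and 9 of 13 isotype paws lay above the no CIA range while 1 lay below it.

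Spp1 (ENSMUSG00000029304.14, chromosome 5, 104435118 to 104441050, plus strand) encodes osteopontin, which macrophages and other cells make as well as osteoblasts. It ran from 39.1 to 713 FPKM with a median of 248 in isotype paws, and the no CIA paws had 49.8, 80.7, 78.1 and 81.9 FPKM. The difference was 1.44 ± 0.797 (adjusted p = 0.336). In isotype paws 9 values lay above and 1 below the no CIA range.

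Osteocalcin, the vitamin K-dependent protein of mature osteoblasts, is encoded in the mouse by neighbouring gene copies. Bglap (ENSMUSG00000074483.2, chromosome 3, 88383501 to 88384464, minus strand) ran from 27.8 to 713 FPKM with a median of 275 in isotype paws, against 14.4, 92.7, 151 and 44.1 FPKM in no CIA paws. Isotype paws averaged 334 ± 260 FPKM and no CIA paws 75.6 ± 59.9 FPKM. The difference was 1.93 ± 0.960 (adjusted p = 0.300). No CIA paws spread as widely relative to their mean as isotype paws did, with coefficients of variation of 77.9% in isotype and 79.2% in no CIA paws.

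Bglap2 (ENSMUSG00000074486.2, chromosome 3, 88377736 to 88378699, minus strand) averaged 226 ± 171 FPKM in isotype paws and 58.7 ± 46.5 FPKM in no CIA paws, a difference of 1.71 ± 0.904 (adjusted p = 0.319). Its level is uncertain apart from that of Bglap. Of the 75-base stretches of the Bglap transcript, 66.1% occur unchanged in the Bglap2 transcript, and the sources used here do not say how reads matching both were assigned. The values of the pair ran together across 52 immunised libraries (r = 0.998).

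Bglap3, the third copy, shares 3.01% of the Bglap stretches. It averaged 13.6 ± 5.14 FPKM in isotype paws and 21.2 ± 8.13 FPKM in no CIA paws, a difference of -0.64 ± 0.303 (adjusted p = 0.287). It was below no CIA by 0.55, 0.59 and 0.46 on the log2 scale in the combination, anti-TNF and anti-IL-6 groups as well, none past the threshold. Across the 52 immunised libraries its r with Bglap was -0.0025.

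The remaining genes mark osteocytes. Dmp1 (ENSMUSG00000029307.7, chromosome 5, 104202613 to 104214102, plus strand), a matrix protein of early osteocytes, ran from 0.586 to 18.6 FPKM with a median of 8.57 in isotype paws. The no CIA paws had 1.30, 2.87, 0.865 and 1.46 FPKM. The difference was 1.43 ± 0.669 (adjusted p = 0.284), with 9 isotype paws above and 1 below the no CIA range.

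Phex (ENSMUSG00000057457.11, chromosome X, 157162075 to 157415312, minus strand) encodes a membrane endopeptidase whose loss causes X-linked hypophosphataemia. It averaged 0.768 ± 0.469 FPKM in isotype paws and 0.318 ± 0.112 FPKM in no CIA paws. No group mean reached the 1 FPKM that the test required, so it was measured without that filter, which gave 0.38 ± 0.242 (adjusted p = 0.607 over 36878 features). The 4 no CIA paws had 0.192, 0.303, 0.465 and 0.313 FPKM, and 9 of 13 isotype paws lay above them.

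Sost (ENSMUSG00000001494.6, chromosome 11, 101962458 to 101967015, minus strand), which encodes sclerostin, had the smallest difference of the 10 genes. Isotype paws ran from 0.307 to 2.20 FPKM with a median of 0.875, against 1.02, 0.778, 0.564 and 0.539 FPKM in no CIA paws. Of the isotype paws, 5 lay above and 2 below the no CIA range. The difference was 0.20 ± 0.242 (adjusted p = 0.666), with a 95% interval from -0.29 to 0.68. At levels near 1 FPKM the log2(FPKM + 1) scale understates a change.

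In the isotype against no CIA comparison 0 of 9 tested genes were called, where 0.156% of all 14700 tested features were. At an unadjusted p under 0.05, 6 of the 9 were higher, where 11.9% of all features were. Runx2 and Sost entered the test only through immunised groups, because their no CIA means were under 1 FPKM, so these counts do not stand for all 10. Without the filter all 10 differences were positive, with a median of 1.39, and 55.3% of 36878 features with any value were positive, with a median of 0.0029. The genes were chosen with earlier results of these data known, and most ran together between mice, so these counts are no test of the set.

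Each antibody group can also be set against no CIA, but these comparisons share the 4 no CIA paws with the isotype comparison, and their likeness is no separate evidence. The combination gave 0 called genes (0.156% of all features called) and 1 higher gene at an unadjusted p under 0.05 (7.97% of all features). Anti-TNF gave 0 called genes (0.551% called) and 8 at the unadjusted threshold (15% of all features). Anti-IL-6 gave 0 called genes (0.558% called) and 8 at the unadjusted threshold (21.2%). Over all 10 genes the median differences were 1.26 for the combination, 1.54 for anti-TNF and 1.57 for anti-IL-6. The largest single differences were those of Bglap in combination and anti-TNF paws (1.98 and 2.24) and of Ibsp in anti-IL-6 paws (2.37).

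**Figure D2:**
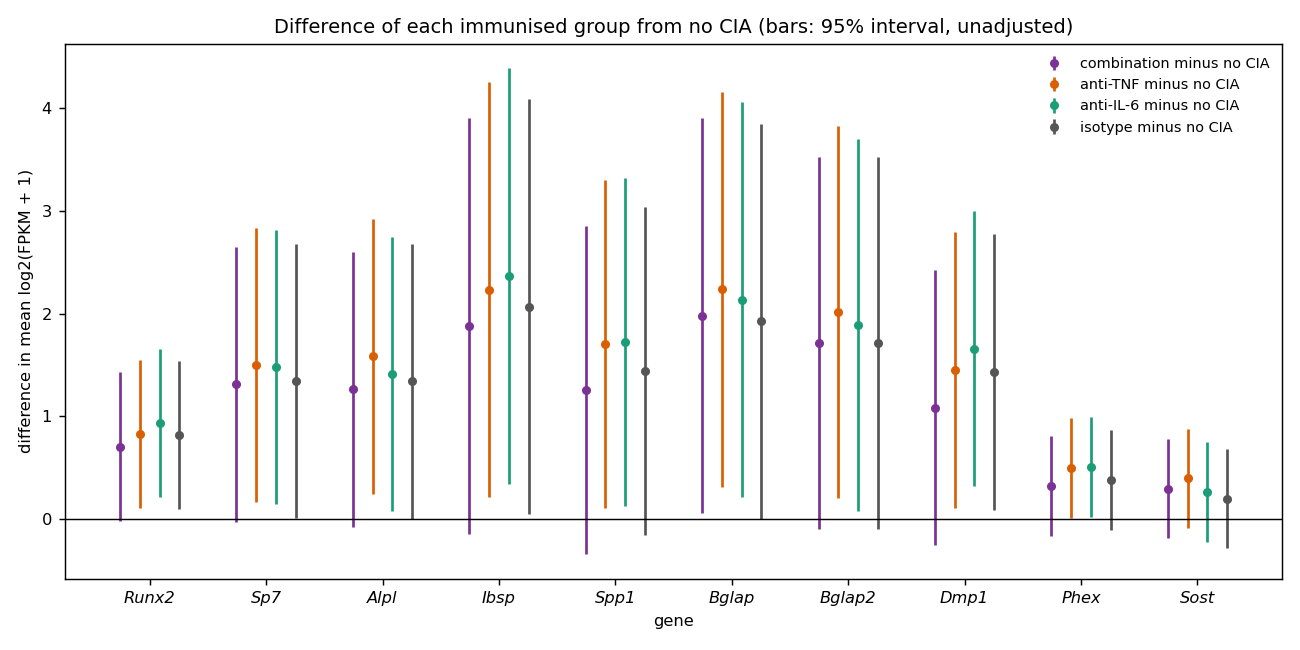
Difference of each immunised group from no CIA in mean log2(FPKM + 1) for the 10 genes, with unadjusted 95% intervals. Every point lies above 0, from 0.20 for Sost in isotype paws to 2.37 for Ibsp in anti-IL-6 paws, and no difference passed the adjusted threshold. Phex is shown from the fit without the filter.

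The 4 no CIA libraries and isotype replicates 4 and 7 hold the library index numbers 39 to 44 given in the titles. No antibody-treated library lies in this stretch. The numbers run on from 44 to 45, an anti-TNF library. The labels name no batches, and the cut into 5 stretches was made here. Within the stretch from 39 to 44, both isotype paws exceeded all 4 no CIA paws for every gene except Sost. The share of all features with the same order was not computed, so this count cannot be read as particular to these genes. Runx2 had 4.42 and 5.25 FPKM in these 2 isotype paws against 0.817 to 1.01 FPKM in no CIA paws, and Ibsp had 109 and 188 FPKM against 6.27 to 19.4 FPKM. Sost had 0.712 and 0.875 FPKM against 0.539 to 1.02 FPKM. With the index stretch as a covariate, Runx2 passed in isotype against no CIA (1.59, limma adjusted p = 0.0269), and Runx2 (1.76, adjusted p = 0.0213) and Sp7 (2.78, adjusted p = 0.0409) passed in anti-TNF against no CIA. The same fit called 2744 and 3264 of all features in these 2 comparisons, so the genes passed along with a large part of the table. Its isotype difference rests on 2 isotype paws. No anti-TNF paw shares a stretch with no CIA paws, so its anti-TNF difference also goes through these 2 isotype paws.

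Those 2 isotype paws ranked 5 and 8 of 56 for the level of a list of mature neutrophil genes. A list level is the mean log2(FPKM + 1) of its genes. Levels of all 9 lists differed in mean between the whole groups. The neutrophil level was 3.06 ± 1.02 in isotype paws and 1.68 ± 0.149 in no CIA paws, the marrow precursor level 1.80 ± 1.13 and 0.690 ± 0.185, and the macrophage level 5.11 ± 0.380 and 4.58 ± 0.0939. The osteoclast level was 3.14 ± 0.907 in isotype paws and 2.17 ± 0.188 in no CIA paws, the chondrocyte level 3.18 ± 0.725 and 2.46 ± 0.211, and the fibroblast level 7.12 ± 0.727 and 6.17 ± 0.0944. The levels of skeletal muscle (9.95 ± 1.21 in isotype and 10.6 ± 0.849 in no CIA paws), epidermis (9.73 ± 0.521 and 9.98 ± 0.311) and adipocytes (3.93 ± 0.383 and 4.41 ± 0.466) had the lower mean in isotype paws. At an unadjusted limma p under 0.05, 9 of 10 fibroblast, 5 of 10 neutrophil, 4 of 10 macrophage, 4 of 10 marrow precursor, 4 of 9 chondrocyte and 2 of 9 osteoclast genes tested were higher, and 3 of 10 adipocyte genes were lower. Of all 14700 tested features, 1753 were higher and 696 lower at that threshold. At an adjusted p under 0.05 limma called 0 genes of any of these lists and 0.156% of all tested features. When the muscle and epidermis levels were entered as covariates, the median isotype difference of the 9 genes was 0.81, against 1.43 without them, and 0 were called. The part of tissue composition in the differences was not tested beyond these values.

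No difference between the antibody groups was detectable for the tested genes at day 91. Among the 6 comparisons of immunised groups, 0 of 9 tested genes were called in any, and 0 had an unadjusted p under 0.05. In combination against anti-TNF, 0% of all tested features were called and 1.09% had an unadjusted limma p under 0.05. In combination against anti-IL-6 these shares were 0.102% and 11.4%, and in anti-TNF against anti-IL-6 they were 0% and 4.68%. In combination against isotype they were 0% and 5.78%, in anti-TNF against isotype 0% and 5.47%, and in anti-IL-6 against isotype 0.952% and 12.8%. The intervals of the members were wide. For Bglap, combination paws averaged 326 ± 246 FPKM, anti-TNF paws 469 ± 356, anti-IL-6 paws 392 ± 320 and isotype paws 334 ± 260. The anti-TNF difference from isotype was 0.31, with a 95% interval from -1.01 to 1.63. The median anti-IL-6 difference from isotype over the 9 genes was 0.17, and it was -0.17 with the index stretch and -0.20 with muscle and epidermis levels as covariates, so its direction depends on the fit.

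Ibsp ran from 7.32 to 205 FPKM with a median of 76.9 in combination paws, from 3.46 to 219 with a median of 128.9 in anti-TNF paws and from 7.68 to 226 with a median of 118 in anti-IL-6 paws. Spp1 ran from 39.96 to 643 FPKM with a median of 267 in combination paws, from 24.9 to 665 with a median of 446 in anti-TNF paws and from 47.3 to 823 with a median of 273 in anti-IL-6 paws. These ranges overlap along nearly their whole length. Sost ran from 0.288 to 2.64 FPKM with a median of 1.10 in combination paws, from 0.220 to 3.28 with a median of 1.25 in anti-TNF paws and from 0.313 to 2.37 with a median of 0.955 in anti-IL-6 paws. In each immunised group some paws had less Sost than every no CIA paw, 2 combination, 2 anti-TNF, 3 anti-IL-6 and 2 isotype paws.

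Bglap ran from 32.9 to 764 FPKM with a median of 301 in combination paws, from 13.0 to 1098 with a median of 607 in anti-TNF paws and from 29.9 to 869 with a median of 285 in anti-IL-6 paws. The lowest and the highest Bglap of all 52 immunised paws were thus both in the anti-TNF group, and the mouse with the highest has a number outside the block of its group. Dmp1 had the lowest mean in combination paws, 5.75 ± 4.19 FPKM, against 8.62 ± 6.84 in anti-TNF, 9.93 ± 7.97 in anti-IL-6 and 7.80 ± 5.51 FPKM in isotype paws. The difference of the combination from anti-IL-6 was -0.58, the largest among the immunised groups, and did not pass (adjusted p = 0.583). Runx2 averaged 2.45 ± 1.51, 2.75 ± 1.51, 3.01 ± 1.61 and 2.75 ± 1.62 FPKM in the combination, anti-TNF, anti-IL-6 and isotype groups. For Runx2 the combination minus isotype interval ran from -0.61 to 0.38.

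The spread between mice was shared by the genes. With group means removed, 44 of the 45 pairs of the 10 genes were positively related over the 52 immunised libraries at an adjusted permutation p under 0.05 (100000 resamples within groups, two-sided, Benjamini-Hochberg over 45 pairs). Leaving Sost and the osteocalcin pair aside, r lay between 0.778 and 0.985. The closest pairs were Sp7 with Alpl (r = 0.985, rho = 0.954) and Sp7 with Ibsp (r = 0.976, rho = 0.957), each with a permutation p of 1e-05, the smallest these resamples can give. Runx2 and Ibsp had r = 0.962 and rho = 0.935, also at 1e-05. Without the 2 libraries farthest from the median of the first gene, these 3 values were 0.984, 0.982 and 0.961.

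**Figure D3:**
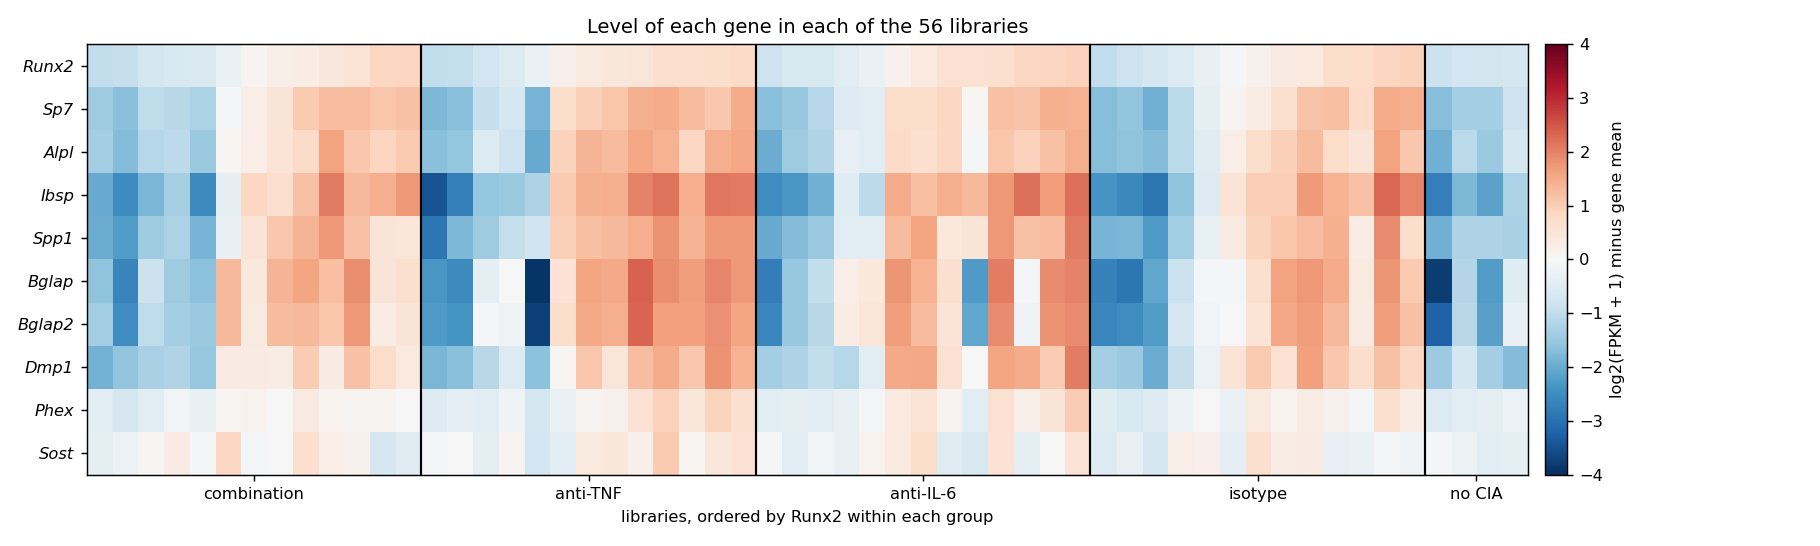
Level of each gene in each of the 56 libraries, as log2(FPKM + 1) minus the gene's mean, with libraries ordered by Runx2 within the combination, anti-TNF, anti-IL-6, isotype and no CIA groups. Runx2, Sp7, Alpl, Ibsp and Spp1 run broadly in the same order in each immunised group, Bglap and Bglap2 are low in a few libraries where Runx2 is high, and Sost follows the order least.

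Ibsp values left a gap between 36.8 and 70.1 FPKM, with 21 immunised libraries below and 31 above it. Both ranges held libraries of every group: below the gap were 6 combination, 5 anti-TNF, 5 anti-IL-6 and 5 isotype paws. Correlations over all 52 libraries therefore mix 2 ranges, and they were recomputed within each as a description, a choice made after the values were seen and with group means kept. Sp7 and Alpl had r = 0.964 below and 0.827 above the gap, and Runx2 and Ibsp 0.817 and 0.740. Bglap and Runx2, at r = 0.783 over all 52 libraries, had 0.557 below and 0.114 above. Ibsp ran with both genes over all 52 libraries (r = 0.845 with Bglap and 0.962 with Runx2). A cut at Ibsp therefore narrows the range of both, which by itself lowers r, and no conclusion is drawn from the lower values. The range above the gap includes anti-IL-6 replicate 13, with 43.1 FPKM of Bglap and 3.98 FPKM of Runx2, and r without it was not computed.

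The libraries with the lowest ratio of Bglap to Ibsp were picked out after their values were seen and carry no test. The ratio was 0.365 in anti-IL-6 replicate 13, 0.662 in anti-TNF replicate 4 and 0.882 in anti-IL-6 replicate 12, and the next lowest was 2.05. Group medians were 5.86 in combination, 4.94 in anti-TNF, 5.01 in anti-IL-6, 3.88 in isotype and 5.73 in no CIA paws. Anti-IL-6 replicate 13 had 43.1 FPKM of Bglap, within the no CIA range, together with 118 FPKM of Ibsp and 3.98 FPKM of Runx2, both far above that range. Anti-TNF replicate 4 had the lowest Bglap, Bglap2, Sp7, Alpl, Phex and Sost of its group, with Spp1 at 110 FPKM, above all no CIA paws. These 3 libraries ranked 1, 3 and 2 of 56 for the neutrophil level, and 1, 2 and 5 for the macrophage level. Leaving any of them out of the group comparisons gave 0 called members.

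**Figure D4:**
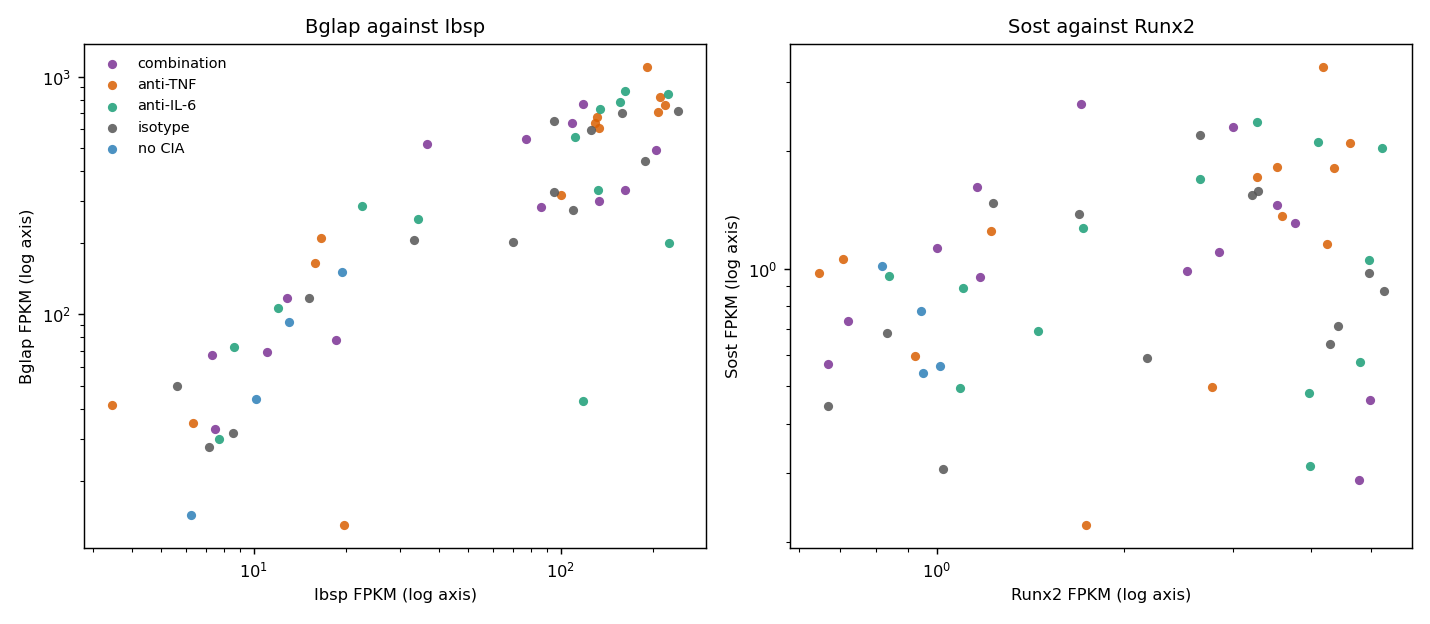
Bglap against Ibsp (left) and Sost against Runx2 (right) in the 56 libraries, in FPKM on log axes, coloured by group. On the left, 3 libraries fall below the main band, with Bglap at 43.1, 13.0 and 199 FPKM for Ibsp at 118, 19.6 and 226 FPKM. On the right the points show little common trend (r = 0.247 over the 52 immunised libraries with group means removed).

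Sost had the lowest correlations with the other 9 genes. They ran from 0.247 with Runx2 (rho = 0.211, permutation p = 0.0871 and 0.142) to 0.677 with Phex (rho = 0.675, permutation p 1e-05 for both, r = 0.629 without the 2 farthest libraries). Between these ends lay 0.349 for Ibsp, 0.400 for Sp7, 0.435 for Alpl, 0.460 for Spp1, 0.528 for Dmp1 and 0.587 for Bglap. Within groups, Sost and Runx2 had r = -0.106 in combination, 0.577 in anti-TNF, 0.219 in anti-IL-6 and 0.257 in isotype paws, 13 libraries each. Whether its correlations differ from those of the other genes was not tested.

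The genes whose levels ran most like Sost, among 14687 named genes, were Mepe (r = 0.83), Bmp3 (r = 0.806) and Ptprz1 (r = 0.700), given as a description over 52 libraries. Mepe encodes an acidic phosphoglycoprotein of osteocytes and Bmp3 a bone morphogenetic protein family member made by osteoblasts and osteocytes. Mepe averaged 2.80 ± 2.20 FPKM in combination, 3.34 ± 2.95 in anti-TNF, 2.77 ± 2.35 in anti-IL-6, 2.70 ± 1.94 in isotype and 0.936 ± 0.245 FPKM in no CIA paws. For Phex the nearest genes were Omd (r = 0.917), Cadm1 (0.894) and Lipc (0.889). Omd encodes osteomodulin, a small proteoglycan of bone.

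Pth1r, the receptor for parathyroid hormone, was among the 3 nearest genes of Sp7 (r = 0.971), Ibsp (0.973), Alpl (0.974) and Spp1 (0.970). Runx2 ran with Podnl1, Cdh2 and Ifitm5 (r = 0.974 each), of which Cdh2 encodes N-cadherin and Ifitm5 a membrane protein of osteoblasts. Ibsp also ran with Fap (0.974), the fibroblast activation protein, and Podnl1 (0.968). Spp1 ran with Fap (0.958) and Susd5 (0.955). Sp7, Alpl and Dmp1 shared Col11a2 (r = 0.978, 0.970 and 0.938), a fibrillar collagen chain of cartilage and bone, and Ptprd (0.973, 0.963 and 0.939). The third for Dmp1 was Ccdc194 (0.936). Bglap and Bglap2 ran with Itga10 (0.950 and 0.948), a collagen receptor subunit of cartilage, Lipc (0.944 for each) and Insc (0.942 for each).

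Levels of 9 marker lists for other cells of the paw were compared with the 10 genes over the same 52 libraries, 90 relations in all. At an adjusted permutation p under 0.05, 52 relations were positive and 19 negative. Osteoclast markers, the genes of the cells that resorb bone, were related to 9 of 10 genes, most closely to Runx2 (r = 0.954, rho = 0.949, permutation p 1e-05 for both, r = 0.9749 without the 2 farthest libraries) and Ibsp (r = 0.936, rho = 0.912, permutation p 1e-05 for both). For Bglap that value was 0.674 (rho = 0.677, permutation p 1e-05 for both, r = 0.778 without the 2 farthest), and within the anti-IL-6 group it was 0.291. Fibroblast markers were related to 9 of 10 genes, from r = 0.572 for Phex to 0.924 for Runx2.

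Chondrocyte markers were related to all 10 genes, from r = 0.469 for Sost (rho = 0.501, permutation p = 0.00069 and 0.00029, adjusted 0.00141 and 0.000555) to 0.909 for Alpl (rho = 0.885, permutation p 1e-05 for both). Bglap had r = 0.894 with them (rho = 0.886, permutation p 1e-05 for both, r = 0.873 without the 2 farthest), against 0.674 with osteoclast markers, a difference that was not tested. Matn1, a chondrocyte marker of that list, was under 0.1 FPKM in every library. Neutrophil markers were related to 9 of 10 genes, from 0.451 for Bglap2 to 0.819 for Runx2, and not to Sost (r = 0.035, rho = 0.125, permutation p = 0.813 and 0.398). Skeletal muscle, adipocyte and epidermis markers had negative values that passed for 7, 6 and 6 genes, down to -0.588 for Runx2 with muscle. All these levels are shares of the same libraries.

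**Figure D5:**
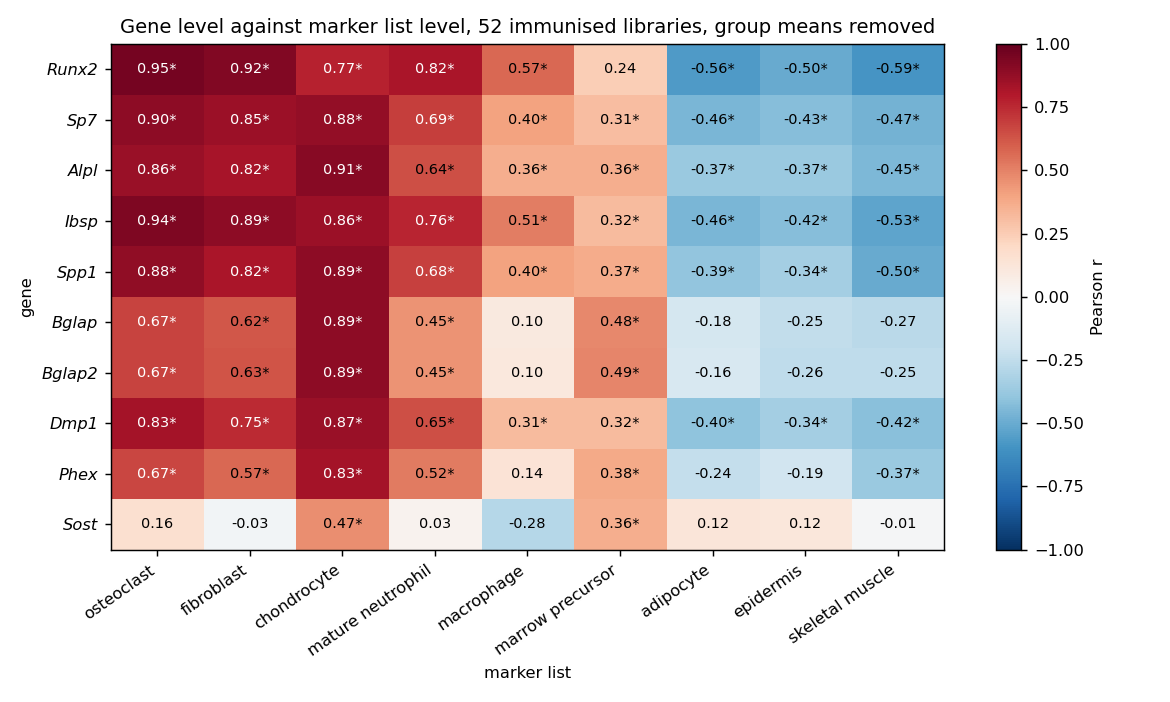
Pearson r of each gene with the level of each of 9 marker lists over 52 immunised libraries with group means removed, from -1 (blue) to 1 (red). A star marks an adjusted permutation p under 0.05. Runx2 has its highest values with osteoclast (0.95) and fibroblast (0.92) markers, Bglap with chondrocyte markers (0.89), and Sost is near 0 for fibroblast (-0.03) and neutrophil (0.03) markers.

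Within the 2 Ibsp ranges several of these relations were weaker or turned. Each range holds only a part of the spread of Ibsp, which was not allowed for. Runx2 and osteoclast markers kept r = 0.852 below and 0.713 above the gap, and Bglap and chondrocyte markers 0.775 and 0.726. Runx2 and chondrocyte markers, 0.770 over all 52, had 0.260 and -0.042. Bglap and osteoclast markers had 0.374 below and -0.308 above, and Bglap and macrophage markers -0.180 and -0.607. The range above the gap holds anti-IL-6 replicate 13, with 43.1 FPKM of Bglap. Its osteoclast (5.37) and macrophage (6.77) levels were the highest of all libraries. Values above the gap without it were not computed. Over all 52 libraries the Bglap and macrophage value was 0.101 (rho = 0.300, permutation p = 0.509 and 0.0382, adjusted 0.527 and 0.0452). It was 0.475 without the 2 libraries farthest from the median macrophage level, anti-IL-6 replicate 13 and anti-TNF replicate 4, so that value rests on these libraries.

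Other bone genes were taken from 4 lists, also chosen with earlier results of these data known. Of all 14700 tested features in isotype against no CIA, 0.156% were called. At an unadjusted limma p under 0.05, 1753 were higher and 696 lower. Positive differences made up 55.8% of these features, and 55.3% of 36878 without the filter. Of 11 bone matrix genes, limma called 0 in isotype against no CIA (7 higher and 1 lower at an unadjusted p under 0.05), 10 had positive differences and the median was 1.18. Cthrc1, a secreted protein of matrix-forming cells, had 55.8 ± 52.1 FPKM in isotype paws and 3.07 ± 1.01 FPKM in no CIA paws, a difference of 2.87 ± 1.13 (adjusted p = 0.266). Col1a1, the main collagen chain of bone and also of skin and tendon, had 1290 ± 1050 FPKM in isotype and 227 ± 49.0 FPKM in no CIA paws, a difference of 1.94 ± 0.764 (adjusted p = 0.266). Over the 52 immunised libraries Col1a1 had r = 0.970 with Runx2, 0.761 with Bglap and 0.135 with Sost. The 2 lowest differences were those of Bglap3, given above, and Col24a1 (0.42 ± 0.259, adjusted p = 0.379). With the index stretch as a covariate Cthrc1 (4.83, adjusted p = 0.0317), Col1a1 (3.56, adjusted p = 0.0258), Col24a1 (1.28, adjusted p = 0.0225) and, as lower, Bglap3 (-1.75, adjusted p = 0.0154) passed, in the fit that called 2744 features.

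Genes of mineralisation and phosphate handling were mixed in direction. Of 10 genes, limma tested 9 and called 0 (1 higher at an unadjusted p under 0.05). Over all 10, 6 had positive differences, with a median of 0.08. Mgp, an inhibitor of mineral growth also made by cartilage and vessels, differed by 1.26 ± 0.581 (adjusted p = 0.281), and Enpp1, which makes pyrophosphate, by 1.02 ± 0.516 (adjusted p = 0.303). Ahsg, which encodes fetuin-A, and Phospho1, a phosphatase of matrix vesicles, differed by -0.25 ± 0.348 and -0.23 ± 0.226 (adjusted p = 0.705 and 0.575).

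Of 10 further osteocyte genes, limma tested 7 and called 0 (1 higher at an unadjusted p under 0.05). All 10 differences were positive, with a median of 0.20. Pdpn, a membrane glycoprotein of early osteocytes and also of synovial fibroblasts, differed by 1.11 ± 0.471 (adjusted p = 0.271) and Mepe by 0.75 ± 0.469 (adjusted p = 0.382). Pdpn passed with the index stretch as a covariate (2.30, adjusted p = 0.0250). Ptprz1 (0.08 ± 0.132, adjusted p = 0.767) and Fbln7 (0.10 ± 0.446, adjusted p = 0.918) were the lowest tested. Dspp, a dentin gene, was under 0.1 FPKM in every library. Its no CIA mean was 0 FPKM, so its difference could not be negative.

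Of 15 osteoblast regulators, limma called 0 (2 higher at an unadjusted p under 0.05), 11 had positive differences and the median was 0.09. Pth1r differed by 1.31 ± 0.581 (adjusted p = 0.276) and Twist1, a factor that restrains Runx2, by 0.87 ± 0.266 (adjusted p = 0.159). Twist1 passed with the index stretch as a covariate (1.17, adjusted p = 0.0296). Dlx3 (-0.11 ± 0.276, adjusted p = 0.842) and Lrp4 (-0.07 ± 0.113, adjusted p = 0.748) were the lowest. Across all comparisons 1 gene of these 4 lists passed the threshold, named for that after its values were seen. Atf4, a stress response factor that osteoblasts need for collagen synthesis, was higher in anti-IL-6 than in isotype paws (168 ± 8.90 and 147 ± 14.0 FPKM, 0.20 ± 0.046, adjusted p = 0.0213). With the index stretch as a covariate it no longer passed (0.16, adjusted p = 0.427). Of all tested features, 0.952% were called in anti-IL-6 against isotype without that covariate.

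Runx2 acts by binding a short motif near the start sites of bone genes. The RUNX core motif was searched as TGTGGT on both strands in the 250 bases before each start site in RefSeq (GRCm38.p6). Of the 10 genes, 8 had promoter entries, 11 promoters in all. Of these 11, 4 held the motif, and so did 14.0% of 32851 promoters of all genes. The matches lay in Bglap, Runx2, Spp1 and Dmp1. Spp1, Dmp1 and Alpl have 2 promoters each. Promoter 2 of Spp1, promoter 1 of Dmp1 and both of Alpl hold no match. The windows of 4 genes are shown, for Spp1 and Alpl that of promoter 1. Those of Bglap and Spp1 hold the motif. Alpl ran closely with them and does not hold it, and Sost ran apart and does not. Capitals mark ACCACA, the motif on the other strand, which begins 132 bases before the start in Bglap and 128 in Spp1. The windows are chr3:88384467-88384716 (minus strand), chr5:104434861-104435110 (plus), chr4:137796385-137796634 (minus) and chr11:101967016-101967265 (minus).
Bglap: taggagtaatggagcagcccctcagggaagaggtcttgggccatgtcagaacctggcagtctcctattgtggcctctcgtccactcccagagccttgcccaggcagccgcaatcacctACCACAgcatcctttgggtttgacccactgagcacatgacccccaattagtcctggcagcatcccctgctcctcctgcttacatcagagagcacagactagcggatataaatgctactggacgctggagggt
Spp1: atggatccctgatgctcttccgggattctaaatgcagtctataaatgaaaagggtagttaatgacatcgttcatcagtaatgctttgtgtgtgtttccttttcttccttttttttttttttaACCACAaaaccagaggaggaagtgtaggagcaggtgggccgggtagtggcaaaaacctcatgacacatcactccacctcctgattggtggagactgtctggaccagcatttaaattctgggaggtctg
Alpl: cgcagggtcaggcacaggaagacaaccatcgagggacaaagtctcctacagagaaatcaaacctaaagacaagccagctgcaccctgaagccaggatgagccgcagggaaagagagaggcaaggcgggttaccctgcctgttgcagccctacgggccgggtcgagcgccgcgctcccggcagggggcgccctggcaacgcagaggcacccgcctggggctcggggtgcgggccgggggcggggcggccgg
Sost: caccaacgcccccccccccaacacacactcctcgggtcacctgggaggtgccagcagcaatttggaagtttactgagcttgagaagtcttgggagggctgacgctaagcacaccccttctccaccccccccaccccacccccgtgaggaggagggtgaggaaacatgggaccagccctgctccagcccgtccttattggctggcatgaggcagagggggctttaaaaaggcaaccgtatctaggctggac
A match describes letters only, and the Alpl and Sost windows without it say nothing of whether the factor binds elsewhere. Of the genes that hold the motif in at least 1 promoter, Bglap, Spp1 and Dmp1 had r = 0.783, 0.922 and 0.899 with Runx2. Of the searched genes without it, Ibsp, Alpl, Phex and Sost had 0.962, 0.923, 0.792 and 0.247.

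Of the 10 genes, 3 lie close together on chromosome 5. Dmp1, Ibsp and Spp1 belong to 1 family of acidic matrix phosphoproteins of bone and tooth and sit within the stretch from 104202613 to 104441050. Over the 52 libraries Ibsp and Spp1 had r = 0.972, Spp1 and Dmp1 0.951, and Ibsp and Dmp1 0.942 (rho = 0.888, 0.903 and 0.879, permutation p 1e-05 for each). Among pairs on different chromosomes, Sp7 with Alpl (0.985) and Sp7 with Ibsp (0.976) had higher values. Others had lower ones, such as Runx2 with Dmp1 (0.899) and Bglap with Ibsp (0.845). A part of position in these values was not tested.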

How the data were processed

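RNA from front paws of 56 mice was sequenced, per the labels' protocols, from Qiagen RNeasy total RNA with Illumina TruSeq Stranded mRNA libraries and paired-end reads on an Illumina NovaSeq. The deposited values are FPKM made by the authors, 1 column per library, a unit read from the values because no header states it. The submitters' processing notes name DESeq2 with no version. Aligner, build, annotation and strandedness of the counting: not given in the sources used here. Gene identifiers matched GENCODE M21 (GRCm38) for 51027 of 53431 features, including the version, and coordinates and symbols come from it. Promoter windows come from RefSeq tables of GRCm38.p6. No pair of libraries was identical (highest correlation 0.9973). Depth was estimated from the steps of low values, 39.9 to 54.7 M fragments (mean 46.8 ± 3.62, SD, n = 56), and differed little between groups. Samples were grouped by their treatment labels.

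The members and the gene lists were chosen with earlier results of these data known. Groups were compared with limma 3.58.1 in R 4.3.3 (trended, robust prior) on log2(FPKM + 1), all 56 libraries in 1 fit with 51 residual degrees of freedom. The 14700 features with a group mean of at least 1 FPKM were tested, two-sided, with Benjamini-Hochberg adjustment over all of them and a threshold of 0.05. Replicates are separate mice. List levels, correlations and permutation tests (100000 resamples within groups) were computed in Python 3.11.15 with numpy 2.4.6. The genes named are the 10 members, the 2 highest and 2 lowest differences of isotype against no CIA in each of the 4 bone lists, any gene called there, and the 3 nearest genes of each member. Alternatives were pseudocounts of 0.1 and 10, no filter, median-of-ratios scaling, only the compared groups, index stretch or muscle and epidermis levels as covariates, 2 libraries with mouse numbers outside their group's block left out, and each library left out in turn.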

Additional observations from a re-analysis of the deposited data

Results flagged for a closer look

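In the group of 4 no CIA paws, Spp1 was set apart by replicate 1, which had 49.84 FPKM against 78.1 to 81.9 FPKM in the other 3. Its gap to the nearest paw was 0.879 of the whole range, above Dixon's critical value for 4 values at 95%. The same paw was also the lowest of the 4 for Bglap, Bglap2, Sp7, Runx2, Ibsp, Alpl and Phex, and the highest for Sost. Of the 10 genes looked at in this group only Spp1 was set apart in this way, and chance sets apart about 1 group in 20.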

How the results depend on the processing

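The count of called members was 0 in all 10 comparisons. It stayed 0 under every alternative but 1: with the index stretch as a covariate it was 1 in isotype against no CIA and 2 in anti-TNF against no CIA. That fit compares isotype with no CIA within 1 stretch, that is over 2 isotype paws. No antibody-treated library lies in that stretch, so the other differences from no CIA in that fit go through the same 2 paws. Leaving out each library in turn gave 0 to 0 called members in every comparison. Calls over all features moved more, in isotype against no CIA from 23 to between 5 and 79 (2744 with the index stretch), in anti-TNF from 81 to between 32 and 112 (3264), in anti-IL-6 from 82 to between 29 and 146 (1608) and in the combination from 23 to between 2 and 59 (118). With 1 library left out they ran from 0 to 59, 7 to 223, 17 to 149 and 0 to 50 in the isotype, anti-TNF, anti-IL-6 and combination comparisons with no CIA. The lowest came without no CIA replicate 4 (isotype and anti-TNF), replicate 2 (anti-IL-6), and replicate 1, 2 or 4 (combination). The highest came without isotype replicate 5, anti-TNF replicate 7, anti-IL-6 replicate 2 and combination replicate 3. For anti-IL-6 against isotype they were 140, and 20 to 473 under the alternatives; for anti-TNF against isotype 0, and 0 to 16; for combination against anti-IL-6 15, and 3 to 30. With 1 library left out, anti-IL-6 against isotype gave 50 to 220 and combination against anti-IL-6 7 to 23. The medians of the 9 tested genes against no CIA stayed positive, lowest with muscle and epidermis covariates (0.81 for isotype, 0.72 for the combination, 0.74 for anti-TNF and 0.51 for anti-IL-6) and highest with the index stretch (2.10, 2.05, 2.49 and 2.02). The cause was not tested. Of 90 list relations 71 passed, and 73, 64, 70 and 66 with a pseudocount of 0.1, of 10, with other scaling and with index stretch means removed. No paired analysis was possible because replicate numbers follow the order of the samples and mark no shared mouse, litter or day. With 4 no CIA mice the standard errors of the members, up to 1.01 on the log2 scale, limit what can be seen. The fit also gives each gene 1 variance for all groups, whereas the spread of some genes differed between groups. Coefficients of variation in isotype and no CIA paws were 59.03% and 8.80% for Runx2, and 77.9% and 79.2% for Bglap. None of the alternatives let the variance differ between groups.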
